A study of Mus musculus with 52 samples.

Results

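Enhancers that were listed in epiblast-like cells (EpiLCs) but not in naive mouse embryonic stem cells (mESCs), and that lay between genes within 50 kb of one, numbered 3162 of 16576 EpiLC enhancers (19.1%). They were chosen by position only. A member was at most 10000 bp long, shared no base with an mESC enhancer, had its centre outside every gene interval of at most 3.2 Mb, and lay more than 1 kb and at most 50 kb from the nearest transcription start site (TSS). Of the 16576 EpiLC enhancers, 16348 were within the length limit, 12236 of those touched no mESC enhancer, 6601 of those were centred outside genes, 5500 of those were over 1 kb from a TSS and 3162 of those were within 50 kb. They are called EpiLC-only near-gene enhancers here.

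The study asked what loss of lysine 27 of histone H3 does to chromatin in pluripotent mouse cells, with 52 chromatin immunoprecipitation libraries in 34 groups, 43 libraries from mESCs grown with LIF and inhibitors of GSK3 and MEK1, and 9 from EpiLCs after 48 hours of differentiation. The EpiLC libraries came from cells in which lysine 27 is arginine in all H3 (pK27R, 2 clones), the H3.3 knockout with mutant H3.3 put back, from a SUZ12 knockout (SUZ12KO), which lacks a core Polycomb subunit, and from control cells (ABE). The mESC libraries also covered clones mutated in canonical H3 alone (cK27R), an H3.3 knockout (H3-3KO), and the knockout with wild-type histone put back (pK27WT, 2 clones). All were on a C57BL6/129Sv background. The values analysed here are the coordinates of the enhancer and gene lists over which those libraries were compared, with 0 columns of signal per library. There are therefore no replicates, no test was run, and every difference between classes of enhancer below is a description that was not tested. The lists were assembled by different groups, and the EpiLC list was defined by peaks of H3K27ac, H3K4me1 and p300. A difference between cell types and a difference in how each list was made cannot be told apart.

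Enhancers are stretches of DNA, usually away from promoters, where transcription factors recruit coactivators such as the acetyltransferase p300, and active ones carry acetylated lysine 27 on histone H3. When naive mESCs become EpiLCs, a model of the epiblast just after implantation, OCT4 (Pou5f1) stays on but binds a partly new set of sites with OTX2, while OCT6 (Pou3f1), ZIC factors, GRHL2 and the growth factor FGF5 come on. ESRRB, KLF and STAT3 sites belong to the naive network, and SOX2 with OCT4 is used in both states through a composite of their sites.

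Stretches of 120 bases are shown first for members tied to pluripotency genes that held short forms of the OCT sites, since these factors define the cell states. A member was tied to the gene with the nearest TSS. The letters searched were TTGTNATGC for the composite of SOX and OCT and ATGCAAAT for the octamer, on both strands, and the last 4 letters of the composite are the first 4 of the octamer. All sequences are the plus strand of mm10, 5′ to 3′, with the matched letters in capitals. The composite was found in members 49.6 kb upstream of Dppa4 (chr16:48234077-48234196), 30.0 kb downstream of the Fgf5 TSS (chr5:98282513-98282632), 23.4 kb upstream of Sall1 (chr8:89066497-89066616) and 20.95 kb downstream of the Zfp281 TSS (chr1:136646702-136646821). The Sall1 stretch lies within Gm3134, a long noncoding gene of RefSeq, and in an unnamed deposited interval over the length limit, while the others overlapped no gene of GENCODE M21 or RefSeq.
Dppa4: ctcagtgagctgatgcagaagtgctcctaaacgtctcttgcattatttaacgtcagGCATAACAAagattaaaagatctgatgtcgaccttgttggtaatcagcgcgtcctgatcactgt
Fgf5: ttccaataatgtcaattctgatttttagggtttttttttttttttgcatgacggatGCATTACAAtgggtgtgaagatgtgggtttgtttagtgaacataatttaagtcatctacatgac
Sall1: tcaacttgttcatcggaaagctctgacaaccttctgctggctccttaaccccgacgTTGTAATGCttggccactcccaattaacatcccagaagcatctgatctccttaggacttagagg
Zfp281: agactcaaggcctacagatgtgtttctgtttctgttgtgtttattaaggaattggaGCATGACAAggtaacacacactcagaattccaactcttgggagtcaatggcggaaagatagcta

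The octamer was found in the central 500 bp of members 9.10 kb downstream of the Myc TSS (chr15:61994368-61994487), 4.03 kb upstream of Mycn (chr12:12945946-12946065), 29.5 kb downstream of the Sox2 TSS (chr3:34679299-34679418) and 24.7 kb downstream of the Sox3 TSS (chrX:60868674-60868793). Sox2 and Sox3 encode related SOX factors, and Myc and Mycn encode growth regulators of the MYC family. The Sox2 member also overlapped the RefSeq element mini-N-4, recorded as an enhancer of the cephalic ectoderm, the posterior central nervous system and the optic vesicle, at chr3:34678812-34678924, outside the stretch shown. The Sox2 stretch lies within Sox2ot as GENCODE M21 draws it, a long noncoding gene that spans Sox2, and the other stretches overlapped no gene of GENCODE M21 or RefSeq. The Sox3 stretch lay in unnamed deposited intervals over the length limit.
Myc: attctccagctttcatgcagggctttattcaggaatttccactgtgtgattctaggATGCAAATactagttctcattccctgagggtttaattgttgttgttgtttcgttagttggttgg
Mycn: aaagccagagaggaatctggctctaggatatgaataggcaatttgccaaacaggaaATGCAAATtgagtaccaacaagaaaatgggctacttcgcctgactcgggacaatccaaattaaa
Sox2: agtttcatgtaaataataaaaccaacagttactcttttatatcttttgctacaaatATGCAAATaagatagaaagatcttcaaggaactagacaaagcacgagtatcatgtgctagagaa
Sox3: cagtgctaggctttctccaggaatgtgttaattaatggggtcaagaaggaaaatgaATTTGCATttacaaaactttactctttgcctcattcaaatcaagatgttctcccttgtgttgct

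The members were of moderate length. Their median length was 1600 bp (quartiles 1000 and 2550 bp, range 150 to 9700 bp), and together they covered 6.34 Mb. The median was 1650 bp in EpiLC-only enhancers inside genes (4188 regions), 1325 bp in EpiLC-only enhancers over 50 kb from a TSS (2338), 2300 bp in EpiLC enhancers that touched an mESC enhancer and met the same position rule (1278, the shared near-gene enhancers) and 654 bp in mESC-only near-gene enhancers (1270). The members were thus 0.696 times as long as the shared ones at the median. This order turned round when at least 50% of both regions had to overlap before a region counted as shared, with a ratio of 1.32. The overlap rule bears on both orders, and its part was not tested. A longer region has more bases that can touch an mESC enhancer. The 50% rule instead keeps as shared only regions of similar length to an mESC enhancer. The longest members were 9700 bp near Psmg4, 9525 bp near Rbx1, 9450 bp near 2900011O08Rik, 9000 bp near Cacng8 and 8975 bp near Epb41l4a.

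The distance to the TSS was part of the rule, which held all 3 near-gene classes between 1 and 50 kb, so nothing is read from how close their medians were. The median distance from centre to TSS was 15.7 kb in the members (quartiles 7.26 and 28.4 kb), 15.9 kb in the shared near-gene enhancers and 16.4 kb in the mESC-only ones. Within the allowed range the members thinned out with distance, with 132 per kb at 1 to 5 kb, 110 per kb at 5 to 10 kb, 82.2 per kb at 10 to 20 kb and 31.7 per kb at 40 to 50 kb. The like classes fell too. From the nearest to the farthest bin, shared near-gene enhancers went from 54.5 to 11.8 per kb and mESC-only ones from 44.75 to 13.1. The counts were not divided by the intergenic bases available at each distance. The members just inside the near limit were 1003 bp from the TSS of Rnf5, 1003 bp from that of Slc12a8 and 1006 bp from that of Tmco1, and regions 999 bp from Bod1l, 994 bp from Gm3636 and 988 bp from Zfp143 fell just outside it. At the far limit, a member 49.9 kb from Atp6v0d2 was inside, as were members 49.9 kb from an unnamed gene and from Lmnb1. Regions 50016 bp from 4933433H22Rik, 50018 bp from Acyp2 and 50040 bp from Hnmt were outside. At the length limit, the shortest regions left out were 10075 bp near Bcar1, 10300 bp near Alg13 and 10350 bp near Mir7671.

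Most members lay upstream of the gene they were tied to. The centre was upstream of the TSS in 2327 members (73.6%, exact 95% binomial interval 72.0 to 75.1%, counting error only), against 74.5% of shared and 72.8% of mESC-only near-gene enhancers. The interval counts members as independent, although 479 genes had at least 2 members. The share was 89.0% at 1 to 5 kb and 63.7% at 40 to 50 kb, against 90.8 and 61.9% in shared and 89.9 and 61.1% in mESC-only near-gene enhancers. The rule bears on this, because positions downstream of a TSS and inside its gene had been removed. With the TSSs and gene bodies of GENCODE M21 in place of the deposited gene table, 60.1% of the regions that met the rule were upstream.

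**Figure D1:**
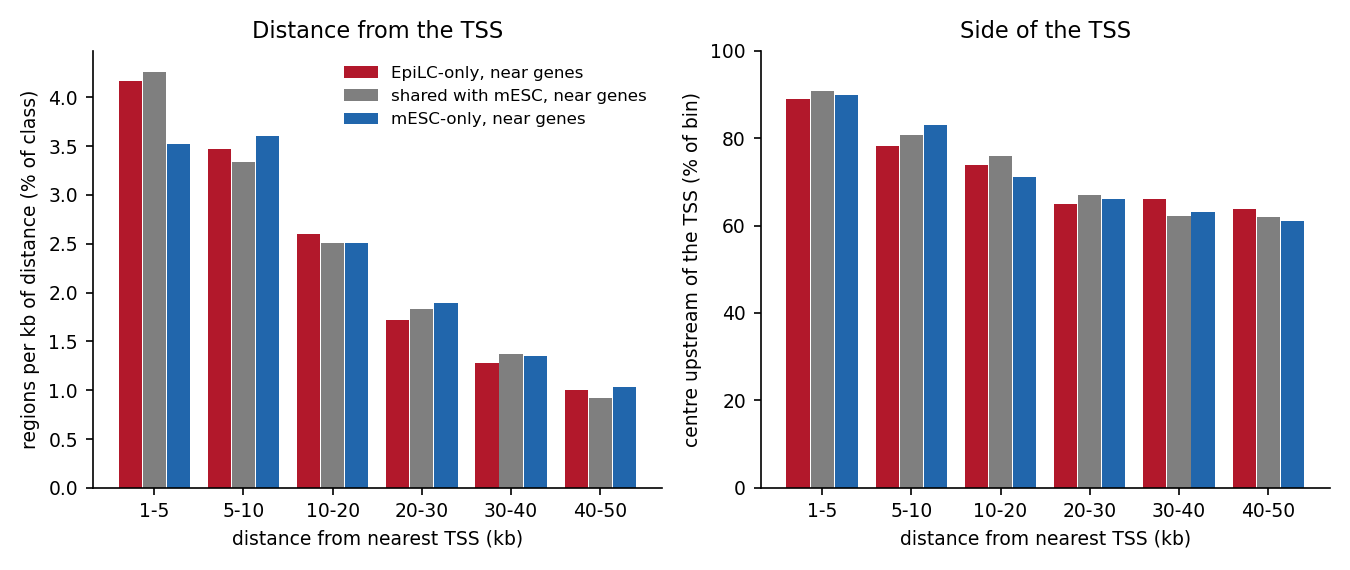
Left, regions per kb of distance from the nearest TSS, as a percentage of each class, in 6 distance bins (kb); right, percentage of each bin with the centre upstream of the TSS. The 3 near-gene classes (EpiLC-only, red; shared with mESC, grey; mESC-only, blue) are all limited to 1 to 50 kb by the rule, and the upstream share of the EpiLC-only class goes from 89.0% in the nearest bin to 63.7% in the farthest.

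Other annotations placed genes at part of the members. A TSS of GENCODE M21 or RefSeq that the gene table lacks lay within 1 kb of 434 members (13.7%). Of these TSSs, 147 belonged to protein-coding genes, 82 to lncRNA and 58 to lincRNA genes. The centre lay in a gene of those annotations in 988 members (31.2%), and 2017 members (63.8%) had neither. The rule also disregarded 97 gene intervals longer than 3.2 Mb, and 1057 members (33.4%) were centred inside one of them. With those intervals kept as genes, 2105 regions met the rule.

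About 1 in 4 members stood close to another. A member had another member within a distance of a little over 12 kb, the length commonly used to stitch enhancers together, in 845 cases (26.7%). Within their own classes the share was 23.6% for EpiLC-only enhancers inside genes, 20.3% for those far from genes and 18.8% for shared near-gene enhancers. These classes differ in size, which bears on such shares. With any other EpiLC enhancer counted as a neighbour, the share was 44.2% for members and 46.5% for shared near-gene enhancers. It was then 38.3% for EpiLC-only enhancers inside genes and 26.8% for those far from genes. None of the 1270 mESC-only near-gene enhancers had any other mESC enhancer that close, so that list cannot be set beside the others in spacing. With runs formed by the same distance, 2317 members (73.3%) stood alone, 312 runs held 2 members each and 52 held 3. The nearest mESC enhancer was 50.1 kb away at the median, centre to centre, and 432 members (13.7%) had one within 10 kb. Some members nearly touched an mESC enhancer, with gaps of 4 bp near Ccdc88b, 7 bp near Scmh1 and 71 bp near Zcchc9, and 31 had a gap of at most 1000 bp.

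The run with most members led to Pou3f1, the gene of the POU factor OCT6 that comes on in the epiblast after implantation. Pou3f1 had 7 members, more than any other gene, in a run at chr4:124612927-124653676 with no other EpiLC enhancer and no mESC enhancer in it. All 7 were upstream of the TSS, at 4.66, 10.9, 17.7, 27.3, 33.3, 41.1 and 43.3 kb, and they covered 14100 bp. Their lengths in that order were 1375, 5350, 2275, 1175, 725, 275 and 2925 bp, so the member at 10.9 kb was the longest. The nearest mESC enhancer was between 126 and 165 kb away. Counted over whole regions of unequal length, the octamer and the composite were in none of the 7, and the ZIC letters CCTGCTG were in 4. The member at 33.3 kb had 3 copies, of which 2 fall in the stretch at chr4:124624170-124624289. That stretch is shown because ZIC2 is an epiblast factor and no other Pou3f1 member had as many copies. It lies within Gm2164, a long noncoding gene of GENCODE M21 and RefSeq, a name that no interval of the gene table carries.
Pou3f1: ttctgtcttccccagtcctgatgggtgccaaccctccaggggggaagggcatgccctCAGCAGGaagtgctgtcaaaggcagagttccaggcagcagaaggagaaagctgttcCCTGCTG

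Eapp was 1 of 3 genes with 6 members, and its members paired as near copies. Eapp encodes a protein that binds E2F factors. Its 6 members, 14.6 to 42.6 kb upstream, formed a run at chr12:54709602-54739326, and each had its partner at the mirror position on the opposite strand. Measured as the percentage of 20-base words of one region found in the other, the outer pair shared 89.3% and 97.5%, the middle pair 97.2% and 86.2% and the inner pair 100% and 71.8%. The 6 members therefore hold 3 sequences, each in 2 inverted copies, and a read from a stretch that both copies share cannot be placed on one of them. How such reads were handled is not given in the sources used here. Among all members, 68 (2.15%) shared at least 50% of their words with 1 other member, 42 of them with a partner on the same chromosome. A member near Dynlt1b and another near 2410141K09Rik were among the 68, and none of the Pou3f1 members was.

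The other genes with many members had varied or unassigned roles. Hes1, a Notch-responsive repressor, had 5 members at 5.99 kb upstream and at 3.42, 5.63, 37.3 and 48.1 kb downstream of its TSS. Prdm1, the gene of BLIMP1, which specifies primordial germ cells, had 5, of which 4 were upstream at 9.95 to 30.5 kb and 1 was 30.6 kb downstream. Crb2, a Crumbs polarity protein needed when epiblast cells leave the epithelium at gastrulation, had 5, all 9.12 to 20.3 kb upstream in 1 run. Pard6b, another polarity protein, and Pim1, a serine/threonine kinase downstream of STAT3, had 5 each, as did Camk2n1, an inhibitor of CaM kinase II. The others among the 12 were 1700121N20Rik and Dynlt1b with 6 each, and 2410141K09Rik and Mir3089 with 5. Smndc1, Snx16 and Terc also had 5 and come later by symbol. Of the 12, Pim1 had 3 shared near-gene enhancers, Prdm1 2 and Mir3089 1, and the other 9 had 0.

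Fgf5, the textbook marker of the formative epiblast, showed the limit of tying by the nearest TSS. It had 1 member by that rule, of 4950 bp at 30.0 kb downstream of its TSS and beyond its end, but this member opened a run of 4 at chr5:98281727-98314426. The other 3, of 5450, 3075 and 7225 bp, were tied to Cfap299 because they lay 36.5, 26.7 and 18.5 kb from the TSS of that gene on its upstream side. The run had no mESC enhancer in it, and the nearest was between 128 and 155 kb away. Over whole regions, the composite was in 2 of the 4 members and the octamer in the other 2. All 4 were longer than the median member, of 1600 bp, and the part of length in these counts was not tested. The share of all members with either motif over whole regions is given with the settings below. Runs of 5 members also lay near Smndc1 (36450 bp), Mir3089 (38850 bp) and Crb2 (13125 bp), and between Gpr142 and Gprc5c (24000 bp).

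**Figure D2:**
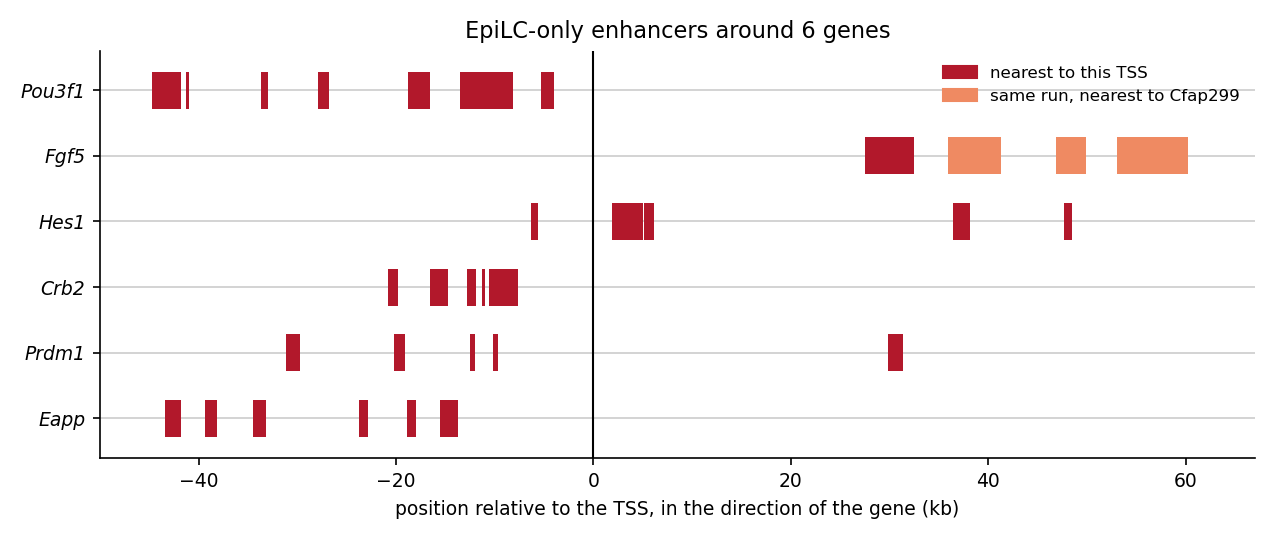
Positions of EpiLC-only near-gene enhancers (boxes drawn to length) around the TSS of 6 genes, in kb along the direction of the gene, with 0 at the TSS. Red boxes are nearest to the TSS of the named gene, and orange boxes are the 3 enhancers that continue the Fgf5 run but are nearest to Cfap299. Pou3f1 has 7 boxes upstream, and the 6 boxes of Eapp are arranged as mirror images.

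Over all genes, 2490 named genes had at least 1 member, 2011 of them exactly 1, 479 at least 2 and 15 at least 5. That is 10.5% of 23745 named genes, with 13.2 members per 100 genes, and with 5.32 shared near-gene enhancers per 100 genes. These values are the background for the gene lists that follow. Of 18 lists, 16 had more members per 100 genes than all named genes, and the other 2 were DNA methylation genes at 8.33 and ribosomal protein genes at 10 per 100. A rate above that of all genes was thus general to the lists. The TSS of the gene a member was tied to lay in an EpiLC enhancer itself for 786 members (24.9%), against 30.0% for shared and 12.9% for mESC-only near-gene enhancers.

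Genes of the formative and primed epiblast had the highest rate, 87.9 members per 100 genes (29 members in 16 of 33 genes), with 48.5 shared near-gene enhancers per 100 genes. Pou3f1 alone held 7 of the 29, and without it the rate fell below the 72.2 per 100 of general pluripotency genes. Beside Pou3f1, the list included Mycn with 3 members, and Sox3, Grhl2 and Lefty2 with 2 each. Grhl2, an epithelial regulator of the epiblast, had them 34.8 and 17.3 kb upstream, and Lefty2, an extracellular inhibitor of Nodal, 18.4 and 15.1 kb upstream. Otx2 had 1 of 800 bp at 27.3 kb downstream of its TSS, and Nodal itself 1 at 11.8 kb upstream. Lef1, Etv4, Sall2, Foxd3, Foxp1, Myc and Fgf15 had 1 each. The de novo DNA methyltransferase genes Dnmt3a and Dnmt3b had 0, as did Zic2, Zic5, Etv5 and Utf1, although the TSSs of Dnmt3b, Zic2, Zic5, Etv5 and Utf1 lay in an EpiLC enhancer. Of the 29 members, 22 were upstream of their gene, 7 of them at Pou3f1. The count was 15 with ties within 20 kb, 40 with every TSS within 50 kb counted and 14 with the TSSs of GENCODE M21.

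Naive pluripotency genes went the other way. Their 25 genes had 7 members in 5 genes (28.0 per 100) and 22 shared near-gene enhancers (88.0 per 100). Klf2 and Zfp462 had 2 members each, and Zfp42 (REX1), Gbx2 and Socs3 had 1 each. Esrrb, Nanog, Tbx3, Tfcp2l1, Klf4, Klf5 and Prdm14 had 0. General pluripotency genes had 13 members in 8 of 18 genes (72.2 per 100), with 3 each at Sall1 and Dppa4, 2 at Zfp281 and 1 each at Sox2, Sall4, L1td1, Tcf7l1 and Rest. Pou5f1 had 0. The ratio of members to shared enhancers was 0.318 for the naive list, 1.63 for the general list and 1.81 for the formative list, against 2.47 over all named genes. With Pou3f1 counted, the formative list had the highest rate of members, while its ratio was below that of all named genes.

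Regulators of gastrulation and the germ layers, mostly silent before gastrulation, had 10 members in 7 of 24 genes (41.7 per 100) and 1 shared near-gene enhancer (4.17 per 100). Eomes, a T-box factor of the primitive streak, had 3 at 8.75 to 10.6 kb. Foxa2, of endoderm and node, had 2 at 6.45 and 6.97 kb upstream, and Gsc, Mesp2, Gata6, Cer1 and Nkx2-5 had 1 each. None of the 24 genes had its TSS in an EpiLC enhancer. Eomes was also in the trophoblast list (6 members in 3 of 15 genes, with Krt8 and Ascl2) and Foxa2 and Gata6 in the primitive endoderm list (5 members in 4 of 15 genes, with Cubn and Sparc), so these lists overlap. The neural list had 8 members, 5 of them at Hes1, 2 at Sox1 and 1 at Meis1.

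In the signalling pathways members lay at ligands, receptors, feedback inhibitors and transcription factors. Of FGF and ERK genes, 10 of 26 had 16 members, led by the feedback phosphatase Dusp6 with 4 and the feedback inhibitor Spry1 with 3, then Fos with 2. The same 26 genes had 15 shared near-gene enhancers, 5 of them at Spry4. Of Nodal and activin genes, 4 of 20 had 8 members, among them the signal transducer gene Smad3 with 2. Of Wnt genes, 10 of 30 had 12 members, with 3 at the receptor gene Fzd7, and all 12 were upstream. BMP genes had 4 members, 2 at Id2 and 1 each at Bmp8b and Bmpr2, and 0 shared. Epithelial adhesion and matrix genes had 14 members in 9 of 30 genes against 5 shared, all 14 upstream, with 3 at the splicing factor gene Esrp1, 2 each at Grhl2, Lamb1 and Krt8, and 1 each at Epcam, Cldn3, Cldn4, Cdh3 and Lama5. An Esrp1 member covered the RefSeq element m9a, recorded as a low-activity enhancer in mouse ES cells.

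The remaining lists gave smaller numbers. Polycomb genes had 9 members in 7 of 31 genes and 12 shared near-gene enhancers, with 2 each at Aebp2 and Rbbp7 and 1 each at Ezh1, Jarid2, Cbx6, Cbx7 and Phc1. The primordial germ cell list had 5 members, all at Prdm1, and 14 shared. Glycolysis genes had 5 (at Gpi1, Pfkp, Ldha, Slc2a3 and Pdk1), DNA methylation genes 1 (at Trim28) and cytosolic ribosomal protein genes 3 (at Rpl19, Rpl23 and Rps24). Muscle and liver genes, set as silent in both cell states, had 4 (at Mb, Des, Pck1 and G6pc), or 16 per 100 genes.

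**Figure D3:**
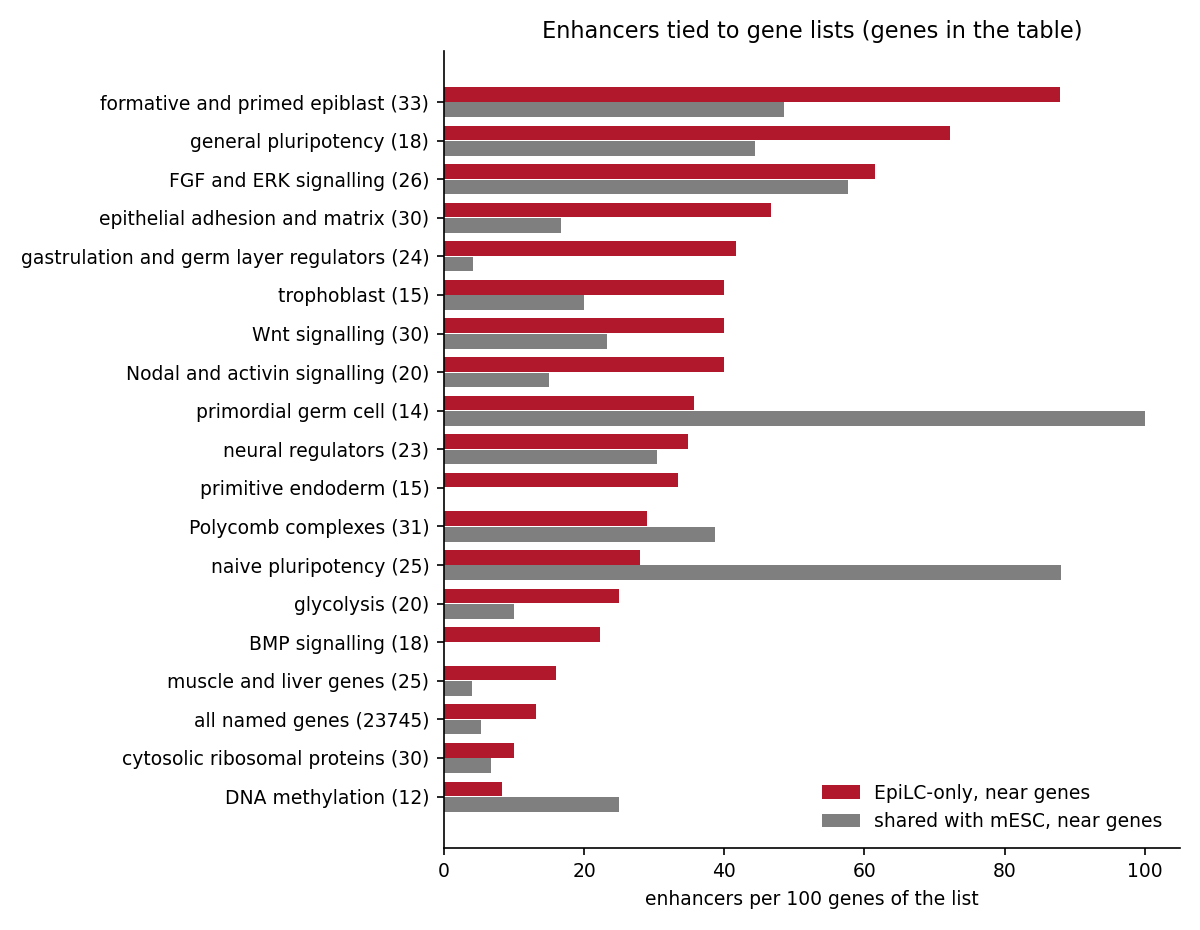
Near-gene enhancers per 100 genes of each list (x axis), for EpiLC-only enhancers (red, upper bar) and enhancers shared with mESC (grey, lower bar), with the number of genes of the list in the gene table in brackets. The formative and primed list is highest for EpiLC-only enhancers at 87.9 per 100 genes, with 7 of its 29 members at Pou3f1. The naive list has 28.0 EpiLC-only against 88.0 shared per 100 genes.

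Few members, and few regions of the like classes, overlapped an enhancer on record in RefSeq. An element that RefSeq records as an enhancer overlapped 35 members (1.11%), against 1.00% of EpiLC-only enhancers inside genes, 0.556% of those far from genes, 1.10% of shared and 0.709% of mESC-only near-gene enhancers. In 29 members it was one of 28 elements tested in mouse embryos by the VISTA project. The tissues recorded were forebrain for 13 members, limb for 12, midbrain for 10, hindbrain for 9 and facial mesenchyme for 7. A member can count for several tissues. The tissues of all recorded elements were not counted, so no leaning to a tissue is read from these numbers. Among them were the longest member, near Psmg4, and the longest member of the Smndc1 run, of 7400 bp. A member tied to Mir8110, 35.6 kb from that TSS, lay in the region EC(Sall1), which RefSeq records as a regulatory region that raises Sall1 expression in ES cells. It was nearest to another TSS and was therefore not among the 3 members counted for Sall1.

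At their centres, members were richer in G and C than their surroundings. The GC content of the central 500 bp averaged 49.2 ± 6.47% (SD over 3162 members) and that of windows 5 kb away 45.4%. It was 49.4% in EpiLC-only enhancers inside genes and 49.0% in those far from genes, and 46.7% in shared and 45.1% in mESC-only near-gene enhancers. Without regions that carry one of the recurrent sequences described next, it was 48.9% in the members, 48.9% inside genes, 46.4% far from genes, 46.8% in shared and 45.0% in mESC-only near-gene enhancers, so the far class was then below the shared one. A window of the composition of a CpG island (GC of at least 55% and an observed to expected CpG ratio of at least 0.65) was at the centre of 80 members (2.53%), and 51 of those 80 lay within 1 kb of a TSS of GENCODE or RefSeq. Repeat-masked bases made up 30.7% of the central windows and 34.8% of those 5 kb away, and at least 50% of the window was masked in 731 members (23.1%).

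Several sequences recurred almost letter for letter in many members. They were found as sets of 20-base words that each occur in the central 500 bp of at least 16 members, and a member was counted as a carrier when its window held at least 10 words of a set. Sequence 1 was carried by 123 members (3.89%), sequence 2 by 137 (4.33%) and sequence 3 by 98 (3.10%), together by 356 members (11.3%). No repeat annotation was used to name them. Sequence 2 has the letters of the B1 family of short interspersed elements. It was carried by 4.33% of members, 2.91% of EpiLC-only enhancers inside genes and 1.11% of those far from genes, and by 6.34% of shared and 3.07% of mESC-only near-gene enhancers.

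Sequence 1 is a unit repeated head to tail. Its commonest word came back after 212 bp, the median and both quartiles of 319 spacings, and 112 of its 123 carriers held 2 or more copies, up to 11. Carriers averaged 63.8% GC and 98.1% masked bases and had a median length of 1175 bp. On the X chromosome were 19 of them (15.4%), against 72 of all 3162 members. Tandem units of about this length are known from the promoters of young mouse L1 retrotransposons. Sequence 1 was carried by 4.66% of EpiLC-only enhancers inside genes, 16.1% of those far from genes, 0 of 1278 shared and 0 of 1270 mESC-only near-gene enhancers, and by 1 of 8794 mESC enhancers in all. How repeated reads were treated in making either list is not given in the sources used here, and the part of that treatment in the contrast was not tested. The unit is shown as found in a member 23.6 kb from the 1700061F12Rik TSS at chr2:9212840-9213051, outside annotated genes, with the letters of the ETS motif (CCGGAAG) and of the GC box (GGGCGG) on either strand in capitals.
Sequence 1: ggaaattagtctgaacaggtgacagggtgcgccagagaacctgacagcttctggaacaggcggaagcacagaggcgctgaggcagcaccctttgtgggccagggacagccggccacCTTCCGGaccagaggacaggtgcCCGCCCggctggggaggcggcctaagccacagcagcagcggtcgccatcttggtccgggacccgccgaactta

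Sequence 3 held the composite of SOX and OCT in part of its carriers, and the letters of FOX and GATA factors about as often. It was found in 3.10% of members, 3.59% of EpiLC-only enhancers far from genes, 1.58% of those inside genes, 5 of 1278 shared and 1 of 1270 mESC-only near-gene enhancers. Of its 98 carriers among the members, 52 (53.1%) held the composite in the central window and 0 held the octamer. The FOX letters TGTTTAC were in 56.1% of these carriers and the GATA letters AGATAA in 54.1%. In carriers of any shared sequence, the form TTGTAATGC made up 53 of the matches, and TTGTCATGC, TTGTGATGC and TTGTTATGC 1 each. In all other members it made up 36, beside 17, 9 and 19 for those forms. The stretch around the composite is shown from a member 24.5 kb from the Fam107a TSS at chr14:8285122-8285241.
Sequence 3: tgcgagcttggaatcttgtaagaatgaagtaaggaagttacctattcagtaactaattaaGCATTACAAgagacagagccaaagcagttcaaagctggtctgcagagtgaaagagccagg

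**Figure D4:**
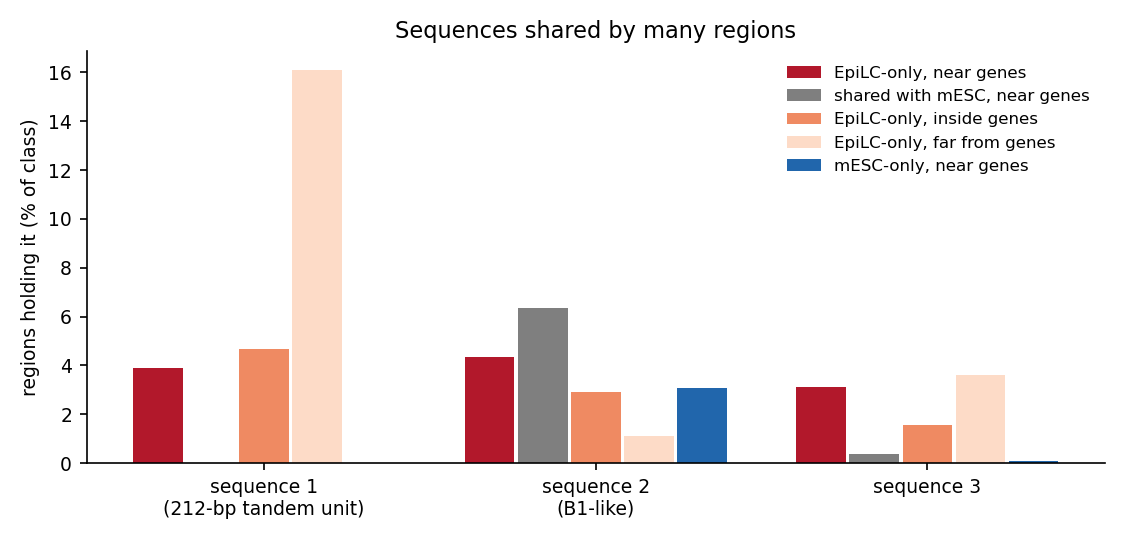
Percentage of regions of each class (bars, by colour) whose central 500 bp carry each of the 3 shared sequences (x axis). Sequence 1 is carried by 3.89% of EpiLC-only near-gene enhancers and 16.1% of EpiLC-only enhancers far from genes, and by none of the shared and mESC-only near-gene enhancers.

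Motif letters were counted in the central 500 bp with and without the 356 carriers, and set beside windows of equal length 4 to 5 kb away on either side. Of 21 motifs searched on both strands, 7 were at least 1.5 times as frequent at the centre as in those flanks, and 8 without the carriers. The sets differed, since FOX passed only with carriers (1.65, and 1.49 without). GRHL and CTCF passed only without them (1.63 and 1.52). The CRE letters TGACGTCA passed both ways, but in only 15 members. The composite was in 137 members (4.33%), 3.67 times its flank share, but in 2.89% without carriers, 2.43 times. The ETS letters were in 241 members (7.62%), 3.51 times the flank share, of which 101 were carriers of sequence 1. Without carriers the ETS share was 4.70%, 2.16 times the flanks. The GC box was in 20.6% of members and in 18.7% without carriers, 2.52 and 2.21 times the flanks.

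The octamer and the ZIC letters were no less frequent without carriers. The octamer was in 156 members (4.93%) and in 5.38% without carriers, 1.55 and 2.00 times the flanks, so its ratio to the flanks did depend on the carriers. The ZIC letters were in 810 members (25.6%) and in 27.2% without carriers, 1.97 and 2.01 times the flanks. The GRHL letters AACNGGTT were in 5.82% of members and in 5.99% without carriers, 1.37 and 1.63 times the flanks. The OTX2 letters GGATTA were in 20.7% of members and in 20.1% without carriers, 0.930 and 0.894 times the flanks, so this 6-letter core was not more frequent at the centres. Of the carriers of the B1-like sequence 2, 65.7% held those letters.

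Shares of some of these letters differed between the members and enhancers listed in mESCs, in values that were not tested. Without carriers, the octamer was in 5.38% of members, 8.31% of shared and 11.1% of mESC-only near-gene enhancers, and the composite in 2.89, 4.28 and 7.40%. The ESRRB letters TCAAGGTCA were in 1.96% of members, 1.20 times the flanks, in 3.36% of shared enhancers, 2.22 times, and in 4.55% of mESC-only ones, 3.73 times. The KLF letters CCACACCC were in 5.52%, 6.46% and 9.11%, in the same order. The ZIC letters ran the other way, with 27.2% of members, 20.6% of shared and 17.4% of mESC-only near-gene enhancers, and so did the GC box with 18.7, 12.3 and 9.59%. Neither order held for the STAT letters TTCCNGGAA, in 1.71% of members, 1.17% of shared and 2.60% of mESC-only near-gene enhancers. The OTX2 letters were about equally frequent in the same classes, at 20.1, 20.1 and 19.3%. By share, the other EpiLC-only classes did not both side with the members. Those inside genes had 26.6% for ZIC, 4.65% for the octamer, 2.21% for the composite and 17.5% for the GC box. Those far from genes had 29.4% for ZIC, but 7.56% for the octamer, 3.72% for the composite and 11.4% for the GC box. These shares, apart from ZIC, were nearer to the shared enhancers than to the members. Ratios to the flanks in the far class were 1.75 for the octamer, 2.76 for the composite and 2.65 for the GC box. They were 2.00, 2.43 and 2.21 in the members and 2.90, 3.26 and 1.60 in the shared enhancers. By ratio the far class was thus nearer to the members. GC content and length of the regions differ between these classes as given above, and their part in the motif shares was not tested. The mESC list was assembled by another group. In these shares the way a list was made and the cell type cannot be told apart.

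**Figure D5:**
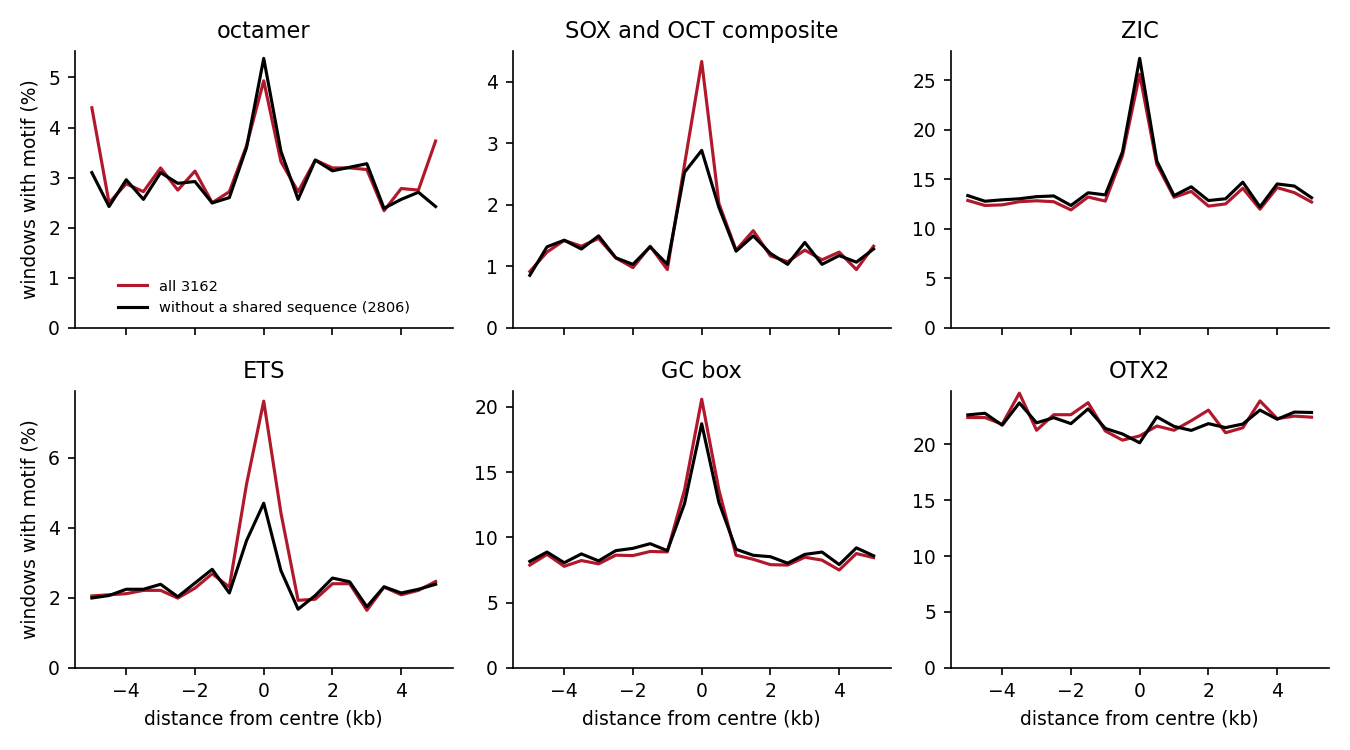
Percentage of 500-bp windows that hold each of 6 motifs, by distance of the window from the centre of the enhancer (kb), for all 3162 EpiLC-only near-gene enhancers (red) and for the 2806 without a shared sequence (black). The composite and ETS peaks are lower in black, at 2.89% and 4.70%, the octamer and ZIC peaks are not, and OTX2 has no peak.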

How the data were processed

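The submitters' processing notes name 3 programs, Bowtie2 2.3.4.1, Trimmomatic 0.38 and bedtools 2.29.2, with the genomes dm6 and mm10, whose roles no source used here gives. Each row of the 3 deposited lists holds the position and strand of a region in mm10, with no signal, score or count. Per the labels, the enhancer lists were lifted over from earlier publications by the authors. Depth is unknown, and 0 columns were left unmapped.

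Starts were taken to count from 0, which is uncertain by 1 bp for the enhancers. The gene table gave 24402 intervals, of which 23811 were named by RefSeq and GENCODE M21. Overlap meant at least 1 bp. Sequence came from GRCm38.p6 with its soft masking, and 0 regions ran past a chromosome end. Windows were 500 bp around centres. Python 3.11.15 and numpy 2.4.6 were used, and the rule and motif search were checked on simulated regions. Named were the 12 genes with most members, up to 4 genes per list, the 5 longest members, the 3 nearest each limit and the 5 largest runs. Further list genes were chosen after their values were seen. Members, lists and motifs were chosen with earlier results of these data known. The comparison of shared sequences was added after seeing the data. Some genes that the rule names are not reported here.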

Additional observations from a re-analysis of the deposited data

How the results depend on the processing

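No paired analysis was possible because the tables hold no value per library, and leaving out a replicate was not possible for the same reason. Of 104 settings tried on the main results, 72 kept the value within its 95% interval (1 SD for GC, 1.5 times for counts) and 32 moved it. The intervals count members as independent, so these labels are only a guide to the size of a move. A TSS ceiling of 20 kb left 1897 members and 1636 genes, a median distance of 8.75 kb, 79.3% upstream, 22.7% close to another member (a little over 12 kb) and a length ratio of 0.663 to the shared enhancers. A ceiling of 100 kb gave 1525 bp, 21.8 kb and 70.5%. A floor of 2 kb gave 16.5 kb. With no gene interval left out for length, 2105 members and 1654 genes remained. Asking for 50% overlap of both regions gave 1751 bp, 33.0% close to another and a length ratio of 1.32. Distance from the nearest edge gave 1525 bp and 16.2 kb, and a width ceiling of 5000 bp 1525 bp, 25.1% close to another and a ratio of 0.792. With the reference annotation the median length was 1500 bp, the distance 11.6 kb, 60.1% were upstream and 22.4% close to another.

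The share of members with the octamer or the composite, 9.04% in 500 bp, was 3.89% in 200 bp, 15.4% in 1000 bp, 21.9% in the whole region, 6.81% in the 235 members without a masked base and, in an alternative added after seeing the data, 8.02% without a shared sequence. The 141 members tied to any listed gene were 81 with ties within 20 kb, 216 with every TSS within 50 kb counted and 77 with the reference annotation. The formative list had 15, 40 and 14 members in those 3 settings, and the naive list 4, 9 and 5. Of 195 settings on single motifs and lists, 84 kept the value. The cause of these moves was not tested beyond the settings themselves.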

Other observations

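Members near a TSS that the gene table lacks stood apart in composition. Of the 434 members within 1 kb of a TSS of GENCODE M21 or RefSeq, 11.8% had a CpG-rich centre, against 1.06% of the other 2728, and 83.8% of all CpG-rich centres held the GC box. By chromosome, members were densest on chromosome 11, at 2.02 per Mb, and sparsest on the X, at 0.421 per Mb, and no member lay on the Y. As a share of all EpiLC enhancers they were alike, at 20.6% on chromosome 11 and 21.2% on the X, against 19.1% over the genome. The densities per Mb are therefore not particular to the members. Of 656 members with the OTX2 letters, 27.4% also held the ZIC letters, against 25.1% of members without the OTX2 letters.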
